A study of Caenorhabditis elegans with 4 samples.

Results

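The comparison described here sets third-stage larvae (L3) of the *C. elegans* *prg-1* mutant against second-stage larvae (L2) of the same mutant. *prg-1* encodes a Piwi-type Argonaute, a protein that carries the germline small RNAs called 21U-RNAs. Both groups were whole worms of strain wm161, grown at 20°C on the bacterial food OP50, and each was represented by 1 library of poly(A) RNA. The mutation was therefore shared by both stages, wild-type worms were not analysed here, and a difference between the stages is one of stage within the mutant and not one of genotype. Expression was measured as FPKM, a fragment number corrected for transcript length and library size, and each value carried a 95% interval from the program that estimated it. Of 46096 listed genes, 15151 were compared, because their estimates had the status OK in both libraries and reached at least 1 FPKM in one of them. Of these, 12798 were protein-coding.

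Larvae of *C. elegans* grow through 4 stages, each of which ends with a molt. Before a molt the epidermis secretes a new cuticle beneath the old one, made mainly of collagens together with cuticlins, other matrix proteins and the proteases and enzymes that process them. Genes for cuticle parts are known to be transcribed in waves that recur with each molting cycle. Seam cells of the epidermis divide in each larval stage, and most of the neurons born after hatching, motor neurons among them, arise during the L1 and L2. In the L3 the gonad elongates, germ cells multiply and begin meiosis, and the vulva is induced by the anchor cell.

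A gene was called higher or lower at L3 when the log2 difference of L3 over L2, computed on FPKM + 1, was at least 1 in size and the 95% intervals of both libraries did not overlap. This is a rule of size and not a test, since 1 library per stage leaves the spread between cultures unknown, and "rose" and "fell" are used below only of genes that met it. By this rule 222 protein-coding genes rose, which was 1.73% of the 12798, and 422 fell, which was 3.3%. These shares are the background against which the gene groups are read. The median log2 difference over all protein-coding genes compared was -0.03, and Spearman's rho of the L3 and L2 levels across these genes was 0.957, which describes genes within a pair of libraries and not replicates. Of the genes that rose, 134 reached at least 10 FPKM and 40 reached at least 100 FPKM in one of the stages, and of those that fell, 283 and 67 did so. The threshold is not a natural gap: 38 genes that rose lay within 0.1 above it and 77 genes lay within 0.1 below it, and 78 genes that fell lay equally close to the lower threshold.

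**Figure D1:**
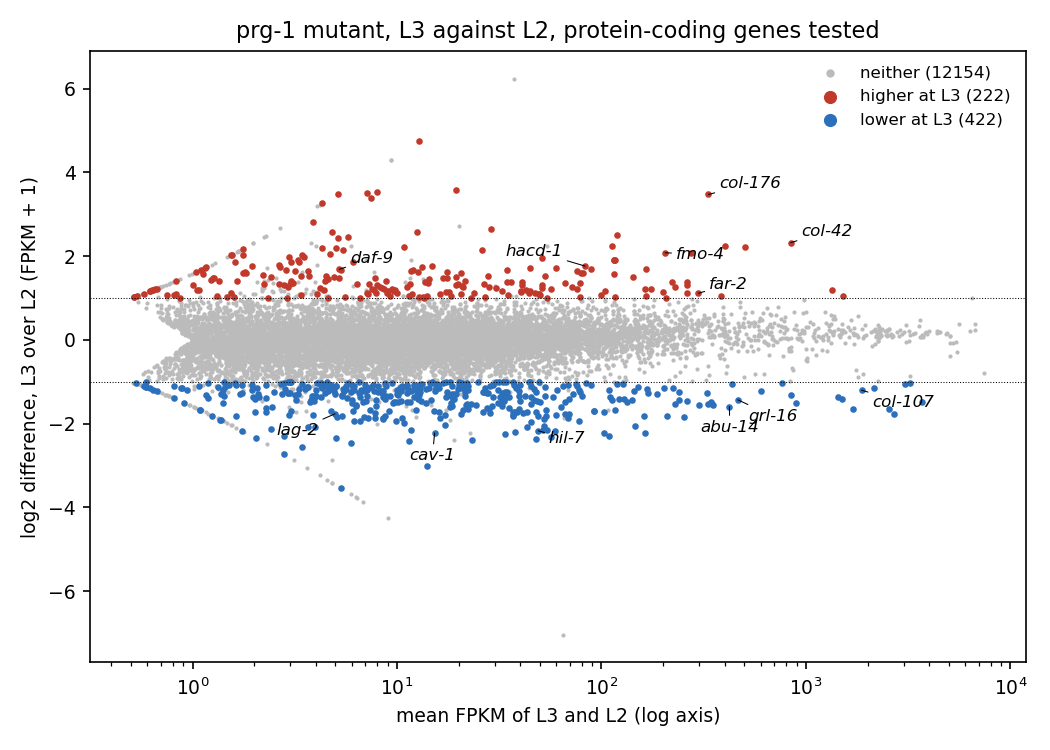
Each point is a protein-coding gene, with the mean FPKM of L3 and L2 on a log axis and the log2 difference of L3 over L2 (FPKM + 1) on the other axis. The 222 genes that rose (red) and the 422 that fell (blue) lay beyond the dotted lines at 1 and -1 over the whole range of levels. Grey points beyond those lines had overlapping intervals.

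*prg-1* itself was measured at 12.96 FPKM at L3 (interval 11.53 to 14.36) and at 11.68 FPKM at L2 (10.31 to 13.02), and the intervals overlapped. Transcript from the mutated gene was thus present at both stages, and since the part of the gene that the mutation affects is not given in the sources used here, this level does not check the genotype. Defining markers of the larval tissues were present in both libraries. The muscle myosin gene *unc-54* stood at 1197 FPKM at L3 and 1138 FPKM at L2, the epidermal collagen gene *dpy-7* at 145 FPKM at L3 and 157 FPKM at L2, and the germline helicase gene *glh-1* at 31.8 FPKM at L3 and 25.12 FPKM at L2. Markers of later stages or males differed in level. The 6 vitellogenin genes, which encode yolk proteins of adults, were low, with sums of 1.14 FPKM at L3 and 1.85 FPKM at L2. The 35 listed major sperm protein genes, which mark late L4 larvae and males, summed to 7.85 FPKM at L3 and 20.6 FPKM at L2. Oocyte and eggshell genes, markers of the adult germline, were higher. Of 20 listed, 15 were compared, and the list summed to 94.6 FPKM at L3 and 116 FPKM at L2. The libraries were close in depth, with the L3 library 1.032 times as deep as the L2 library. The median half-width of the intervals at L2 was 40.9% of the value between 1 and 5 FPKM, 18.6% between 5 and 20 FPKM, 9.65% between 20 and 100 FPKM and 5.08% above that, so that changes in genes at low levels are known less precisely. The 26S ribosomal RNA gene *rrn-3.1*, which poly(A) selection is meant to deplete, was listed at 2526 FPKM at L3 and 1252 FPKM at L2. Its part in the results was not tested.

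Among the gene lists, which together held 131 of the 422 protein-coding genes that fell, that of the cuticle collagens held the most. Of 120 genes of the *col* cuticle collagen family that were compared, 43 fell, 11 rose and 66 did neither, and the median difference was -0.62 beside -0.03 for all genes. Of the 120, 50 had a value outside its own interval in either library or both, so their levels are uncertain. Values lay inside their intervals for 24 of the 43 that fell and for 5 of the 11 that rose. 2 of the 43, *col-66* and *col-182*, are annotated as pseudogenes. The family's summed level was 51904 FPKM at L3 and 65027 FPKM at L2. Among abundant members that fell, *col-107* stood at 1136 FPKM at L3 (interval 1119 to 1179) and 2614 FPKM at L2 (2605 to 2697), a log2 difference of -1.20. *col-12* stood at 179 FPKM at L3 (169 to 190) and 506 FPKM at L2 (491 to 529), a difference of -1.49. *col-14* stood at 118 FPKM at L3 (109 to 126) and 339 FPKM at L2 (324 to 357), a difference of -1.52. Over all 43 collagens that fell, the differences ran from -1.85 to -1.02. *col-13*, the neighbour of *col-12* on chromosome V, was nearly equal to it, at 178 FPKM at L3 and 514 FPKM at L2. The 2 genes are close paralogs, so reads may have been shared between them and their separate levels are uncertain.

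The collagens that rose at L3 reached levels as high. *col-42* stood at 1404 FPKM at L3 (interval 1385 to 1452) and 280 FPKM at L2 (268 to 294), a log2 difference of 2.32. *col-149* stood at 665 FPKM at L3 (646 to 692) and 139 FPKM at L2 (130 to 148), a difference of 2.25. A listed gene overlaps *col-149*. *col-176*, *col-98* and *col-103* had point values of 613, 826 and 444 FPKM at L3 against 54.3, 177 and 105 FPKM at L2. Each of these values lay above its own interval, so their levels are uncertain. Of the 12798 protein-coding genes, 1744 had a value outside its interval, above or below, in either library or both. Of the 120 *col* genes compared, 30 had positive and 90 had negative differences, so the 11 that rose were a minority in a family with mostly negative values.

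All 6 collagens of the annular furrows, the circumferential grooves of the cuticle, met neither criterion of change, with differences between -0.27 for *dpy-8* and 0.10 for *dpy-9* and a median of -0.13. *dpy-7* was at -0.11, *dpy-10* at -0.10, *dpy-2* at -0.16 and *dpy-3* at -0.21. Of 14 other body shape and blister collagens, 3 rose, none fell and 11 did neither. The median was -0.70, 10 of the 14 were negative, and the list summed to 8693 FPKM at L3 and 15635 FPKM at L2. The 3 that rose were *bli-1*, *bli-2* and *bli-6*, whose mutants have a blistered cuticle; BLI-1 and BLI-2 are known from the struts of the adult cuticle. *bli-1* stood at 5.34 FPKM at L3 (interval 4.34 to 6.34) and 0.74 FPKM at L2 (0.45 to 1.02). A listed gene overlaps *bli-1*, and its neighbour *col-80* rose as well. *bli-2* stood at 6.08 FPKM at L3 (3.73 to 7.46) and 1.28 FPKM at L2 (0.55 to 1.93), and *bli-6* at 4.04 FPKM at L3 (2.34 to 5.38) and 0.79 FPKM at L2 (0.27 to 1.25). All 3 were thus below 2 FPKM at L2 and below 7 FPKM at L3. Other members lay just short of the threshold on the opposite side. *dpy-13* was at 1521 FPKM at L3 and 3001 FPKM at L2 (a difference of -0.98, with values above their own intervals), *dpy-5* at 1258 FPKM at L3 and 2330 FPKM at L2 (-0.89), and *sqt-3* at 1371 FPKM at L3 and 2418 FPKM at L2 (-0.82).

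In the matrix families beside the collagens, most of the calls were of genes that fell, although most members met neither call. The *abu* and *pqn* genes encode proteins rich in glutamine and asparagine, several of which are known parts of the cuticle that lines the pharynx. Of 68 compared, 22 fell, 1 rose and 45 did neither, with a median of -0.33. Of the 11 genes named *abu*, 10 fell. *abu-14* stood at 210 FPKM at L3 (interval 202 to 221) and 635 FPKM at L2 (619 to 659), a log2 difference of -1.59. *pqn-72* stood at 16.7 FPKM at L3 (14.6 to 18.8) and 57.2 FPKM at L2 (52.8 to 61.7), a difference of -1.72. Members of the *abu* group are similar in sequence, and 11 of the 22 genes that fell had values outside their own intervals, among them *abu-8* with the largest difference of the list (-2.22).

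The hedgehog-related genes are secreted proteins of the warthog (*wrt*), groundhog (*grd*) and ground-like (*grl*) families, many of which are made by epidermal and other cells that face the apical matrix. Of 46 compared, 16 fell, 1 rose and 29 did neither, and the median was -0.79. *grl-16* stood at 251 FPKM at L3 (interval 243 to 262) and 678 FPKM at L2 (666 to 703), and *grl-7* at 137 FPKM at L3 (129 to 146) and 308 FPKM at L2 (296 to 323). The largest difference was that of *grl-1*, at 3.69 FPKM at L3 (2.58 to 4.73) and 19.8 FPKM at L2 (16.9 to 22.5), a log2 difference of -2.15. A listed gene overlaps it. The member that rose was *grd-3*, at 243 FPKM at L3 and 105 FPKM at L2, both values being above their own intervals. The patched-related membrane proteins showed a smaller share of change, since 3 of 28 fell, none rose and the median was -0.49. *ptr-3* had the largest difference, at 3.79 FPKM at L3 (3.01 to 4.55) and 14.5 FPKM at L2 (12.5 to 15.8).

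Astacin metalloproteases, secreted zinc proteases of which some are needed to shed the old cuticle, had the lowest median of these lists, -0.91. Of 27 compared, 11 fell, none rose and 16 did neither, and all 11 had values inside their intervals. *nas-38* stood at 10.2 FPKM at L3 (interval 8.30 to 11.5) and 34.3 FPKM at L2 (29.5 to 35.9), a log2 difference of -1.66. *nas-6* and *nas-7*, proteases of the pharyngeal grinder, stood at 2.82 and 6.05 FPKM at L3 and at 7.24 and 14.7 FPKM at L2. *nas-36* and *nas-37*, which act in the shedding of the cuticle, went opposite ways without meeting the rule, at 5.58 and 23.3 FPKM at L3 and at 11.3 and 14.3 FPKM at L2. Of 18 chitin genes 4 fell and none rose, with a median of -0.57. One of them, *chs-2*, encodes the chitin synthase of the pharynx and stood at 6.92 FPKM at L3 (6.12 to 7.72) and 18.7 FPKM at L2 (17.1 to 20.2). Of 30 genes for cuticlins and related zona pellucida domain proteins, 6 fell, none rose and the median was -0.46. *cut-1*, which encodes a cuticlin best known from the dauer larva, stood at 2.66 FPKM at L3 (1.68 to 3.55) and 9.98 FPKM at L2 (7.51 to 11.7). Listed genes overlap *cut-1*.

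Regulators and general enzymes of the molt had medians closer to zero than most of these lists. Of 31 genes known from molting, 2 fell (*bed-3* and *lpr-7*) and none rose, with a median of -0.26, and of 12 collagen-processing enzymes only *mlt-7* fell, with a median of -0.27. *bed-3*, a zinc finger gene needed for molting, stood at 23.9 FPKM at L3 (interval 20.26 to 25.23) and 51.16 FPKM at L2 (44.37 to 52). It was also the only one of 16 epidermal and seam cell transcription factors that met the rule, and the median of that list was -0.15. *nhr-23*, a nuclear receptor that drives the molting cycle, stood on the other side of zero at 39.39 FPKM at L3 and 24.98 FPKM at L2 (a difference of 0.64). The GATA factor genes *elt-1* and *elt-3* differed by -0.32 and 0.20. The library labels do not give the position of the worms within a stage, so a difference in stage and a difference in the phase of the molting cycle cannot be told apart here. In whole worms, fewer cells of a type and less RNA per cell cannot be told apart either.

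**Figure D2:**
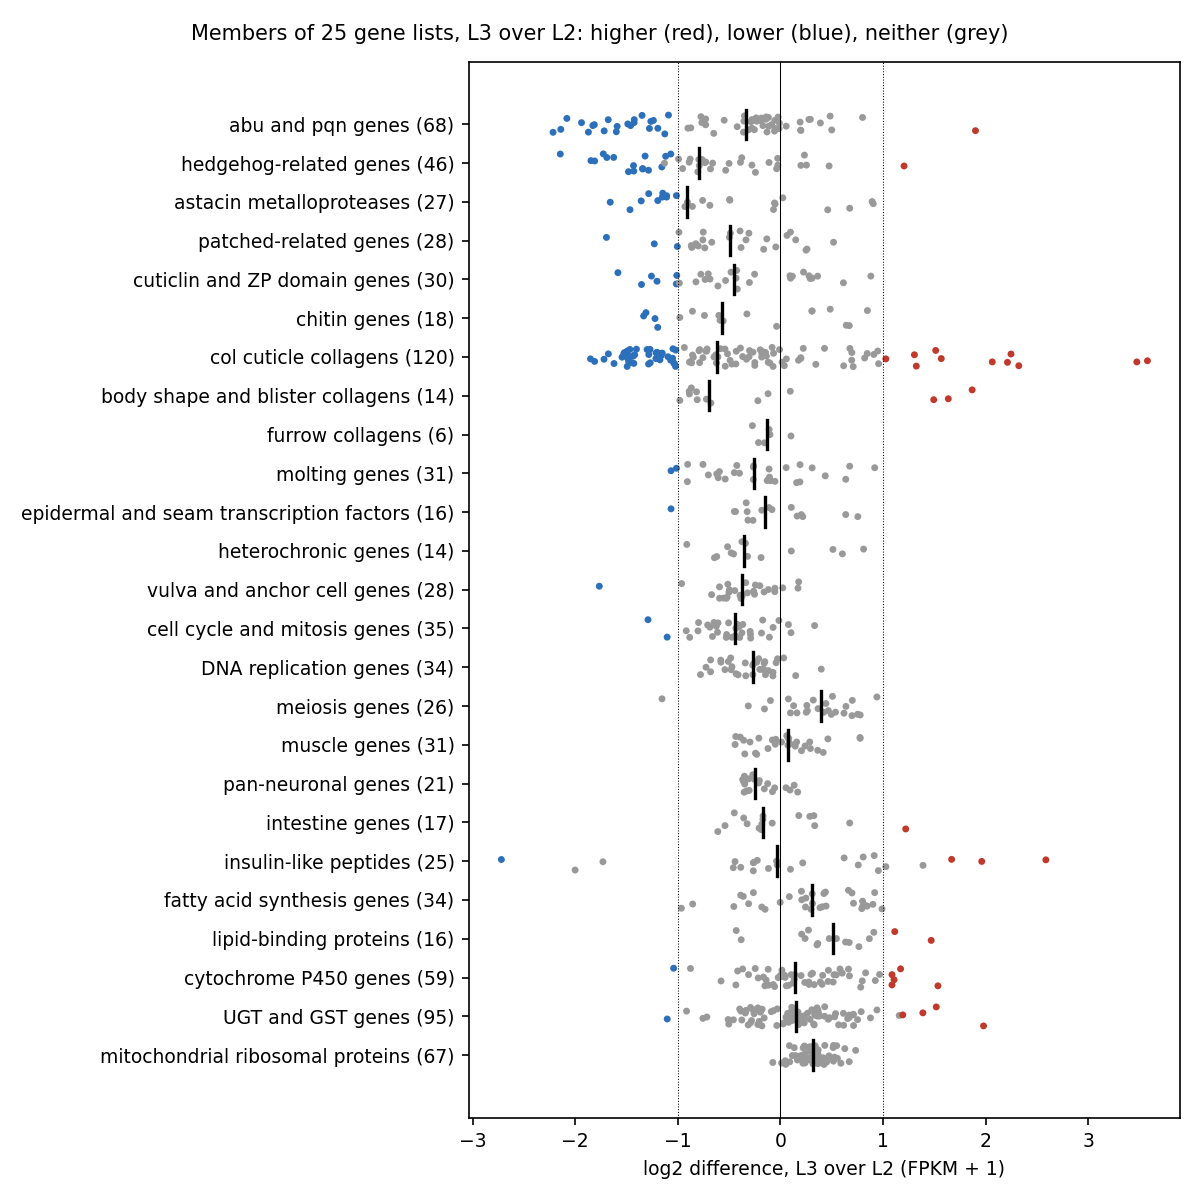
Each point is a gene of one of 25 lists, placed by its log2 difference of L3 over L2 (FPKM + 1), with the number compared in parentheses and the list's median as a black bar. Red points rose, blue points fell and grey points met neither call. The abu and pqn, hedgehog-related, astacin and col cuticle collagen lists hold most of the blue points, and their medians lie between -0.33 and -0.91. The furrow collagen list and the body shape and blister collagen list hold none.

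Levels in the L1 and L4 libraries, which the rule did not use, are given beside those of L2 and L3 for the genes that met the rule. The median of the 43 collagens that fell was 8.95 FPKM at L1, 84.6 FPKM at L2, 36.4 FPKM at L3 and 146 FPKM at L4. The 22 *abu* and *pqn* genes that fell had medians of 2.75, 71.7, 21.97 and 42.1 FPKM at L1, L2, L3 and L4, and the 16 hedgehog-related genes had medians of 4.10, 18.7, 6.22 and 58.5 FPKM. The median over the 11 astacin genes was 1.501 FPKM at L1, 11.4 FPKM at L2, 4.73 FPKM at L3 and 7.84 FPKM at L4. In each of these 4 sets L1 had the lowest median. The L1 library also had higher sums of vitellogenin and major sperm protein genes than L2 and L3. The 35 listed major sperm protein genes summed to 368 FPKM at L1 and 165 FPKM at L4. For the 6 vitellogenin genes the sums were 14.7 FPKM at L1 and 261 FPKM at L4. The bearing of these markers on the L1 levels was not tested. The order of L3 and L2 is fixed by the rule that chose the genes and is no finding here. All 43 collagens, all 22 *abu* and *pqn* genes, all 16 hedgehog-related genes and 10 of the 11 astacin genes were higher at L4 than at L1. Over all 12798 protein-coding genes, 5318 were. Among all 422 genes that fell, 343 were higher at L4 than at L1, and among the 222 that rose, 178 were. The 11 collagens that rose had medians of 114 FPKM at L1, 57.6 FPKM at L2, 211 FPKM at L3 and 181 FPKM at L4, and 8 of them were higher at L4 than at L1.

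**Figure D3:**
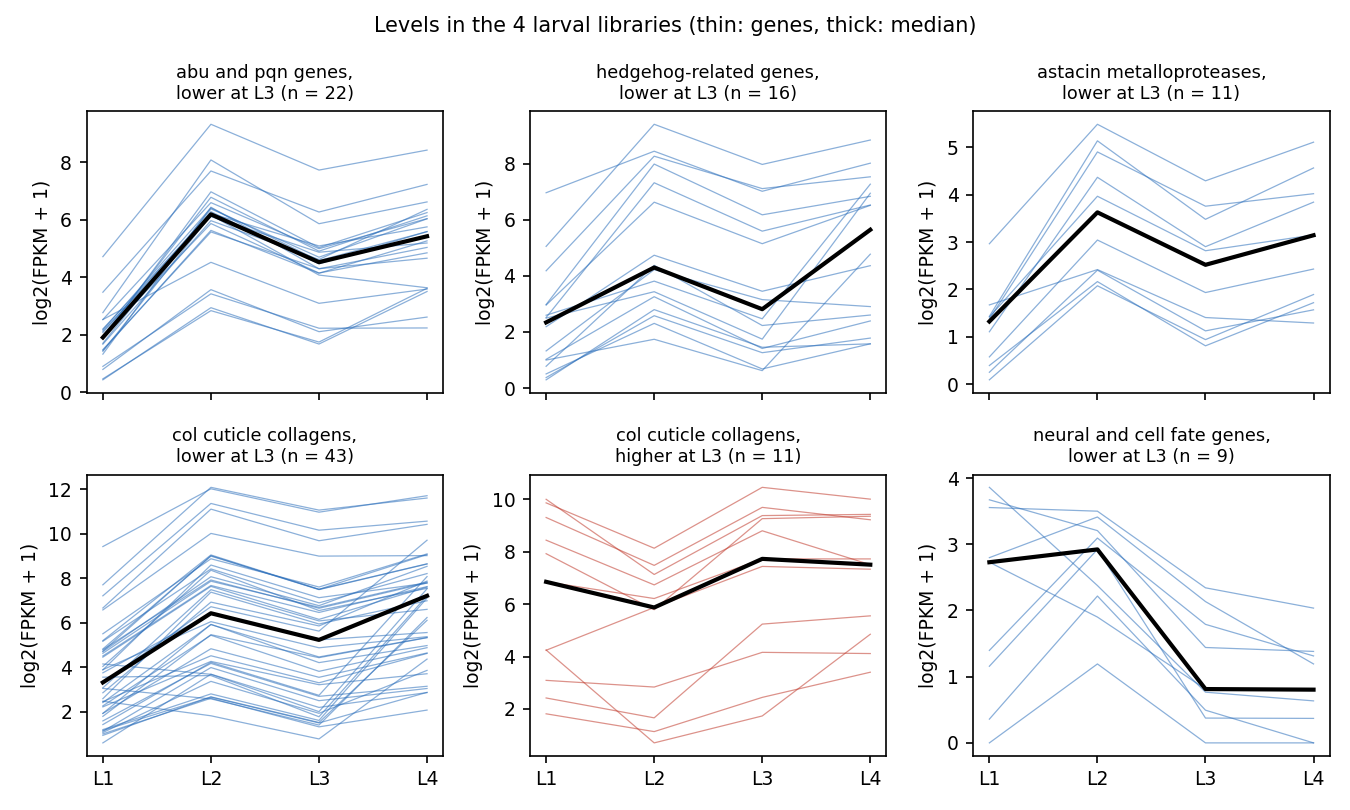
Thin lines are genes and thick lines medians of log2(FPKM + 1) in the L1, L2, L3 and L4 libraries, 1 library each, and every panel has its own vertical scale. In the 4 panels of matrix genes that fell, the median is lowest at L1, and in the panel of the 11 collagens that rose it is higher at L4 (181 FPKM) than at L1 (114 FPKM). The rule that chose the genes fixes the order of L3 and L2 in every panel. The 9 neural and cell fate genes were chosen after their values were seen, and their median stays low at L4.

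Some genes known to specify neurons and other cell fates were among those that fell. They were picked among the genes that met the rule after their values were seen, and apart from *unc-55*, given below, were not members of a list. By name prefix, 2 of the 13 *hlh* genes (15.4%) and 2 of the 42 *ceh* homeobox genes (4.76%) compared fell, and none rose. Over all protein-coding genes compared, 3.3% fell. The largest decrease of any protein-coding gene with values inside its intervals was that of *cnd-1*, the homologue of the vertebrate neurogenic factor NeuroD. *cnd-1* stood at 0.30 FPKM at L3 (interval 0 to 0.55) and 6.58 FPKM at L2 (3.63 to 8.84), a log2 difference of -2.55. The proneural genes *ngn-1* (neurogenin), *hlh-3* and *hlh-14* (both of the achaete-scute family) fell with it. *ngn-1* was listed at 0 at L3 and at 1.29 FPKM at L2 (0.29 to 2.16), *hlh-3* stood at 0.70 FPKM at L3 (0.21 to 1.16) and 4.19 FPKM at L2 (2.28 to 5.43), and *hlh-14* at 0.76 FPKM at L3 (0.19 to 1.26) and 2.73 FPKM at L2 (1.40 to 3.81). The level of their dimerisation partner *hlh-2*, a member of the list of vulva and anchor cell genes, was 7.16 FPKM at L3 and 14.9 FPKM at L2, a difference of -0.96 that fell short of the rule.

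A further 4 genes that fell, *unc-55*, *egl-46*, *ceh-6* and *ces-1*, were also brought together after their values were seen. Of these, *unc-55* belongs to the nuclear hormone receptor list and was its only member that fell. By name prefix, 1 of 25 *egl* genes (4%) and 1 of 91 *unc* genes (1.1%) compared fell. *unc-55*, a nuclear receptor that sets the synaptic pattern of the VD motor neurons, stood at 2.46 FPKM at L3 (interval 1.43 to 3.43) and 7.54 FPKM at L2 (5.07 to 9.41). *egl-46*, a zinc finger gene of neuronal lineages, stood at 3.39 FPKM at L3 (2.35 to 4.52) and 9.65 FPKM at L2 (7.81 to 11.6), and the POU homeobox gene *ceh-6* at 4.07 FPKM at L3 (2.85 to 5.22) and 10.3 FPKM at L2 (7.83 to 11.4). *ces-1*, a Snail-type repressor known from the control of cell death in a neuronal lineage, stood at 0.41 FPKM at L3 (0 to 0.72) and 3.65 FPKM at L2 (1.91 to 4.68). These genes were all low, with no level above 11 FPKM at either stage. Genes used by mature neurons gave no call: of 21 pan-neuronal genes, 30 genes for FMRFamide-like peptides, 15 neurotransmitter genes and 31 ciliary transport genes, none rose and none fell. The fate genes above were picked because they fell, so these lists form no contrast with them. The pan-neuronal median was -0.25.

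The Notch ligand gene *lag-2*, which is expressed by the distal tip cell and the anchor cell of the gonad as well as by neurons, was the only one of 28 vulva and anchor cell genes to meet the rule. It stood at 1.72 FPKM at L3 (interval 0.93 to 2.50) and 8.23 FPKM at L2 (5.74 to 9.42), a log2 difference of -1.77. The other members stayed within the threshold, but 25 of the 28 were negative and the median was -0.38. The anchor cell signal *lin-3* stood at 2.858 FPKM at L3 and 3.996 FPKM at L2, the FGF gene *egl-17* at 1.41 FPKM at L3 and 2.01 FPKM at L2, and the Notch receptor gene *lin-12* at 3.34 FPKM at L3 and 3.71 FPKM at L2. The Wnt gene *lin-44*, which was named after its value was seen, fell to 5.84 FPKM at L3 (4.42 to 7.25), against 12.99 FPKM at L2 (10.61 to 15.39).

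Genes of dividing cells had slightly negative medians. Of 35 cell cycle and mitosis genes, 2 fell and none rose, with 32 negative values and a median of -0.44. The 2 were *cdc-25.2*, a phosphatase that activates cyclin-dependent kinases, at 10.3 FPKM at L3 (interval 7.75 to 11.4) and 26.7 FPKM at L2 (21.1 to 26.8), and *zen-4*, a kinesin of cytokinesis, at 12.8 FPKM at L3 (9.12 to 14.3) and 28.7 FPKM at L2 (20.2 to 28.7). Of 34 DNA replication genes, none met the rule, 31 were negative and the median was -0.27. The histone H1-like gene *hil-7* fell to 17.2 FPKM at L3 (12.6 to 21.9), against 80.9 FPKM at L2 (70.2 to 91.5), while the related *hil-1*, named after its value was seen, rose to 6.53 FPKM at L3 (3.91 to 7.73), against 2.29 FPKM at L2 (1.08 to 3.45). Another large decrease was that of the caveolin gene *cav-1*, at 4.74 FPKM at L3 (3.10 to 6.48) and 25.8 FPKM at L2 (21.9 to 29.8).

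None of 24 germline and P granule genes, 26 meiosis genes or 15 oocyte and eggshell genes met the rule. Their medians were 0.14, 0.39 and 0.24, with positive differences in 14 of the germline, 22 of the meiosis and 12 of the oocyte genes. The summed levels did not all have the sign of the medians. The germline list summed to 555 FPKM at L3 and 526 FPKM at L2, but the meiosis list to 103 FPKM at L3 and 120 FPKM at L2 and the oocyte list to 94.6 FPKM at L3 and 116 FPKM at L2. The germline Notch receptor gene *glp-1* stood at 4.51 FPKM at L3 (interval 3.88 to 5.16) and 2.08 FPKM at L2 (1.65 to 2.49), with intervals apart and a difference of 0.84. *gld-1*, a translational repressor of the germline, stood at 15.83 FPKM at L3 and 8.999 FPKM at L2, and *daz-1*, an RNA-binding protein of oogenesis, at 17.3 FPKM at L3 and 9.27 FPKM at L2. The meiotic axis gene *him-3* stood at 3.25 FPKM at L3 and 1.48 FPKM at L2, with overlapping intervals. The germline and meiosis genes named here were all positive, and *glp-1* had the largest difference of the germline list. In that list 10 members were negative, down to -0.56, and in the meiosis list 4 were negative, down to -1.15. Neither the 18 Argonaute genes nor the 36 small RNA pathway genes compared had a member that met the rule, and their medians were 0.15 and -0.02.

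The heterochronic genes, which time the larval fates of the epidermis, gave no protein-coding call among 14 compared, and their median was -0.36. *lin-14*, which specifies early larval fates, stood at 23.2 FPKM at L3 (interval 20.7 to 25.6) and 32.7 FPKM at L2 (29.7 to 35.7). *hbl-1*, which opposes the passage from L2 to L3 fates, stood at 19.3 FPKM at L3 (17.63 to 21.05) and 30.8 FPKM at L2 (28.5 to 33.0), and *lin-28* at 19.7 FPKM at L3 (16.8 to 22.6) and 25.22 FPKM at L2 (21.88 to 28.58). For *lin-14* and *hbl-1* the intervals were apart, with differences of -0.48 and -0.64, and those of *lin-28* overlapped. *lin-46*, which acts downstream of *lin-28*, lay on the other side, at 9.32 FPKM at L3 (6.80 to 10.6) and 4.89 FPKM at L2 (3.31 to 6.37). *lin-29*, which directs the change to adult epidermis, stood at 10.03 FPKM at L3 and 9.254 FPKM at L2.

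A non-coding RNA of the same timing system differed far more. *lep-5*, a long non-coding RNA on chromosome X known to act on *lin-28* in the timing of maturation, stood at 168.1 FPKM at L3 (interval 154 to 182) and 24.2 FPKM at L2 (19.2 to 29.2), a log2 difference of 2.75. In the 4 libraries *lep-5* stood at 12.5 FPKM at L1, 24.2 FPKM at L2, 168.1 FPKM at L3 and 375 FPKM at L4. It was named after its value was seen. Of 2353 genes compared that were not annotated as protein-coding, 19 (0.807%) rose and 38 (1.61%) fell, and many of these are short RNAs that were listed at 0 in one library or had values far from their own intervals.

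*daf-9*, the cytochrome P450 that makes the dafachronic acid ligands of the nuclear receptor DAF-12, rose to 8.496 FPKM at L3 (interval 7.11 to 9.88), against 1.95 FPKM at L2 (1.32 to 2.59), a log2 difference of 1.68. The receptor gene *daf-12* stood at 104.3 FPKM at L3 (99.37 to 109.99) and 72.9 FPKM at L2 (68.7 to 77.2), a difference of 0.51. *hsd-3*, named for similarity to hydroxysteroid dehydrogenases, rose to 3.43 FPKM at L3 (2.15 to 4.56), against 0.08 FPKM at L2 (0 to 0.21). In the series of 4 stages *daf-9* stood at 0.69, 1.95, 8.496 and 7.90 FPKM at L1, L2, L3 and L4, so its L3 and L4 levels were close. *daf-9* was chosen after its values were seen.

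**Figure D4:**
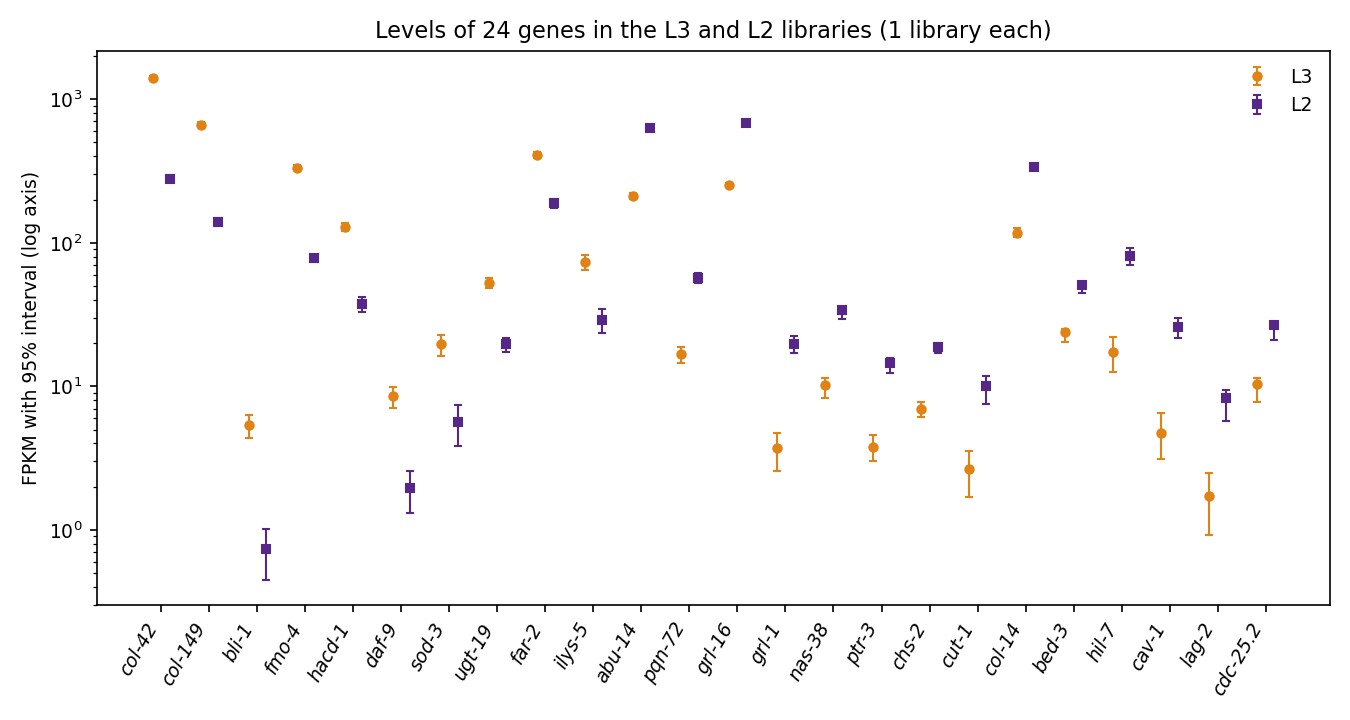
FPKM of 24 genes on a log axis, with the L3 library (orange circles) left of the L2 library (purple squares) for each gene and bars for the 95% intervals within each library. The first 10 genes rose and the other 14 fell. All 24 were chosen among genes that met the rule, which itself requires intervals apart, so that no intervals meet is no finding.

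Genes of lipid transport and synthesis had mostly positive differences, and few of them met the rule. Of 16 lipid-binding protein genes, 2 rose, none fell, 14 were positive and the median was 0.51. *far-2*, a fatty acid and retinol binding protein, stood at 408 FPKM at L3 (interval 390 to 429) and 188 FPKM at L2 (175 to 201), and *far-7* at 26.3 FPKM at L3 (20.9 to 31.7) and 8.86 FPKM at L2 (5.81 to 11.9). None of 34 fatty acid synthesis genes met the rule, but 24 were positive, the median was 0.31 and their summed level was 4818 FPKM at L3 and 3161 FPKM at L2. The fatty acid elongase gene *elo-5* stood at 617 FPKM at L3 (600.04 to 643) and 330 FPKM at L2 (316 to 347), a difference of 0.90, and the desaturase gene *fat-6* at 338 FPKM at L3 and 194 FPKM at L2, with values above their own intervals. *hacd-1*, a hydroxyacyl-CoA dehydrogenase named after its value was seen, rose to 129 FPKM at L3 (120 to 138), against 37.3 FPKM at L2 (32.9 to 41.6). The lipid genes were thus higher at L3 mostly by less than 2-fold.

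Among enzymes that modify small molecules, the flavin-containing monooxygenase gene *fmo-4* had the largest difference at a high level. It stood at 332 FPKM at L3 (interval 320 to 345) and 77.7 FPKM at L2 (72.98 to 82.49), a log2 difference of 2.08. Of 59 cytochrome P450 genes of the *cyp* families, 5 rose and 1 fell, and of 95 UGT and GST genes, which encode conjugating enzymes, 4 rose and 1 fell. The medians were 0.14 and 0.15. *cyp-35A4* stood at 6.02 FPKM at L3 (4.35 to 7.26) and 1.42 FPKM at L2 (0.78 to 2.04), *ugt-19* at 52.8 FPKM at L3 (48.8 to 56.9) and 19.6 FPKM at L2 (17.2 to 21.9), and *gst-14* at 6.20 FPKM at L3 (2.99 to 7.47) and 0.83 FPKM at L2 (0.14 to 1.40). Of 15 antioxidant and metallothionein genes, 2 rose and none fell. *sod-3*, a mitochondrial superoxide dismutase, stood at 19.6 FPKM at L3 (16.3 to 22.9) and 5.66 FPKM at L2 (3.82 to 7.35), and a listed gene overlaps it. The other was *mtl-1*, whose values lay above their own intervals.

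Secreted peptide genes that met the rule went in both directions, and the lectin and lysozyme lists had few calls. Of 25 insulin-like peptide genes, 3 rose (*ins-4*, *ins-33* and *ins-35*) and 1 fell (*ins-16*, listed at 0 at L3), but all 4 had values outside their own intervals and are short genes, so their levels are uncertain. Of 36 genes for *fip*, *fipr* and *cnc* peptides, which include antimicrobial peptides, 3 rose and 7 fell, with a median of -0.47. Values lay inside their own intervals for only 1 of the 3 and 2 of the 7, and 23 of the 36 had a value outside, so these levels are uncertain too. Of 91 C-type lectin genes 3 rose (3.3%) and 2 fell (2.2%), and of 29 lysozyme and saposin genes 1 rose (3.45%). Over all protein-coding genes compared, 1.73% rose and 3.3% fell, so these few calls set neither list apart. The lysozyme gene that rose was *ilys-5*, of the invertebrate type, at 73.1 FPKM at L3 (interval 64.2 to 82.1) and 29.1 FPKM at L2 (23.7 to 34.6). All 4 of 20 pharynx genes that fell were *phat* genes, which encode toxin-like peptides of the pharyngeal glands, and all 4 had values outside their own intervals.

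Other tissues and housekeeping groups were nearly level. None of 31 muscle genes, 17 basement membrane genes or 31 proteasome genes met the rule, and the muscle median was 0.07. Of 17 intestine genes 1 rose, which was *mtl-1* again. Among 186 nuclear hormone receptor genes 2 rose and 1 fell, which was *unc-55* again. Among 174 F-box, MATH and BATH genes 1 rose and 1 fell, and of 52 heat shock genes 1 rose. The genes for ribosomal proteins shared a small positive difference: 74 of 77 cytosolic ones (median 0.14) and 66 of 67 mitochondrial ones (median 0.32) were positive, and none met the rule. Of 65 core histone genes 54 were positive, the median was 0.39 and 1 rose. Core histone messages mostly lack a poly(A) tail, and the level of *rrn-3.1* given above also differed between the libraries. Whether either bears on the histone values was not tested.

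The largest increases with values inside their intervals belonged to genes of no known role. K06H6.2 stood at 14.5 FPKM at L3 (interval 11.8 to 17.2) and 0.49 FPKM at L2 (0 to 1.09), a log2 difference of 3.38. Its neighbour K06H6.1 stood at 7.53 FPKM at L3 (4.98 to 8.75) and 0.20 FPKM at L2 (0 to 0.41), and the next genes on chromosome V, *gtnt-57* and *gtnt-56*, rose as well. D1086.9 stood at 8.93 FPKM at L3 (7.21 to 10.2) and 0.66 FPKM at L2 (0.36 to 1.01). The largest decreases beside *cnd-1* included *gtnt-13*, at 1.12 FPKM at L3 (0.62 to 1.67) and 10.7 FPKM at L2 (9.02 to 12.5), and F49C12.4, at 2.93 FPKM at L3 (1.601 to 3.914) and 20.1 FPKM at L2 (13.9 to 20.7). The lists held 48 of the 222 genes that rose and 131 of the 422 that fell, so most of the genes in both directions lay outside them.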

How the data were processed

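Poly(A) RNA of whole *prg-1* mutant larvae was measured in 4 libraries, 1 for each of the stages L1 to L4. Per the submitters' processing notes, reads were mapped with TopHat2 (2.0.8) and expression estimated with Cufflinks (2.1.1) on build ce10. Neither the gene annotation, nor the handling of multiply mapped reads, nor strand is stated in the sources read. FPKM, as the authors deposited it, comes with a 95% interval and a status for every gene. These values are not counts, so no count model was used.

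Genes of the L3 and L2 libraries were joined on identifier and locus, and 35 genes at L3 and 26 at L2 with failed estimates were left out. The log2 difference of L3 over L2 used a pseudocount of 1 FPKM and understates changes of genes at low levels. Gene names came from the files and, where those gave a sequence name only, from RefSeq, in which 44817 of 46096 identifiers matched. With 1 library a stage there was no test. Computation used pandas (2.3.3), numpy (2.4.6) and scipy (1.17.1) under Python (3.11.15), with plots by matplotlib (3.10.9). The code of the rule was run on values simulated from the intervals within a library. These hold no spread between cultures, so that run says nothing of calls due to such spread. The relative depth is the commonest ratio of low values, at which 566 of 2604 genes below 1 FPKM in both libraries stood.

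The genes compared, the 54 gene lists and the rule were chosen with earlier results of these data known. Named genes are the 15 with the largest difference in each direction among those inside their intervals, up to 6 called members in each direction and the 3 highest members of each list, the members of the furrow collagen, epidermal, heterochronic and vulval lists, and *prg-1*. Chosen outside this rule, with their values in view, were *lep-5*, *ngn-1*, *hlh-3*, *hlh-14*, *egl-46*, *ceh-6*, *ces-1*, *lin-44*, *hil-1*, *daf-9*, *hacd-1*, *rrn-3.1*, members of lists that did not meet the rule of size, and genes given as neighbours or by name prefix. The alternatives tried varied the threshold, the pseudocount, the scaling, the low-value filter and how intervals were used.

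Lists not described above had few calls. Of 73 *nlp* neuropeptide-like genes 1 rose and 3 fell, of 42 chemoreceptor genes 1 rose (*srbc-15*, annotated as a pseudogene), of 18 somatic gonad genes 1 rose, of 22 aspartic and cysteine proteases 1 rose and 1 fell, and of 45 transthyretin-like genes 1 rose. None of 8 spermatogenesis genes, 7 major sperm protein genes or 13 genes of glia and other small tissues met the rule, and no vitellogenin gene reached 1 FPKM.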

Additional observations from a re-analysis of the deposited data

How the results depend on the processing

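Among protein-coding genes, 222 rose and 422 fell. Without the intervals 343 rose and 563 fell. A log2 difference of at least 2 left 32 and 31, one of at least 1.5-fold gave 554 and 941, and the requirement that the bounds of the intervals lie 2-fold apart, chosen after seeing the data, left 56 and 110. The other settings stayed within 1.5 times. A pseudocount of 0.1 FPKM gave 278 and 542, no filter on low values 222 and 422, a minimum of 5 FPKM 166 and 353, median-ratio rescaling 241 and 388, rescaling to a common sum 205 and 386, and values inside their own intervals 149 and 297. Also chosen after seeing the data, a level above 0 in both stages gave 201 and 405, no overlapping listed gene 191 and 315, and interval midpoints in place of FPKM 205 and 400. Leaving out the low-value filter could not change the counts, because values below 1 FPKM in both stages cannot meet the rule. Thresholds, filters, pseudocounts and small rescalings cannot reverse the direction of a call. Among the 216 genes followed, those chosen after their values were seen included, none reversed under these settings, which was therefore largely fixed in advance. Of these, 207 kept their call under each rescaling, 153 when values had to lie inside their intervals, 79 when the bounds had to lie 2-fold apart and 40 at a log2 difference of at least 2, and 48 lost it when genes overlapping another were left out. With a pseudocount of 0.1 FPKM, the medians were -0.72 in place of -0.46 for cuticlins, -1.03 in place of -0.79 for hedgehog-related genes, -1.72 in place of -0.77 for major sperm proteins and 0.67 in place of 0.39 for meiosis genes. The median of the body shape and blister collagens was -0.70 over all members and -0.12 over those inside their intervals. Under median-ratio rescaling the medians of the nuclear hormone receptor and small RNA pathway lists, both near zero, changed sign. No paired analysis was possible because L3 and L2 had 1 library apiece. The spread between cultures is unknown, and the intervals cover the estimate within a library only.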

Other observations

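Families defined by the prefix of the gene name were counted after the data were seen. Of 175 families with at least 8 protein-coding genes compared, 110 had no gene that rose or fell. Beside the lists above, genes fell in 7 of 12 *dbd*, 9 of 16 *idpp* and 6 of 12 *nspb* genes, and rose in 7 of 18 *nspc* genes, 2 of 9 *dod* genes and 3 of 27 *dhs* genes. Only 1 of the 12 *nspb* and 5 of the 18 *nspc* genes had values inside their own intervals, so most of their levels are uncertain. In the other families this held for 7 *dbd*, 13 *idpp*, 5 *dod* and 22 *dhs* genes. The *gtnt* family was split, with 3 of 25 that rose and 4 that fell. The background is 1.73% of protein-coding genes for those that rose and 3.3% for those that fell.

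Some genes that met the rule lay side by side among the protein-coding genes compared. Those that rose included 15 runs of neighbours with 37 genes, and those that fell included 31 runs with 76 genes. The longest run of genes that fell held 6 genes on chromosome V, *pqn-63* followed by *idpc-7*, *idpc-6*, *idpc-5*, *idpc-4* and *idpc-3* (chrV:9616032-9629110, ce10). The longest runs of genes that rose held 4 genes each, K06H6.2, K06H6.1, *gtnt-57* and *gtnt-56* on chromosome V (chrV:585778-595677, ce10) and *nspc-12* to *nspc-15* on chromosome X. Neighbours of like sequence may share reads. In the 6-gene run 1 gene had its values inside its own intervals, in the *nspc* run of 4 genes 1, and in the K06H6.2 run all 4. Of the genes that rose 42, and of the genes that fell 64, lay on chromosome X, which held 1880 of the 12798 genes compared. Another listed gene overlapped 31 of the 222 genes that rose and 107 of the 422 that fell, beside 3151 of the 12798.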
